A study of Mus musculus with 130 samples.

Results

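The genes described here are 48 cytochrome P450 genes of families 1 to 4 in mouse liver. They were taken from 80 genes whose symbols follow the pattern of those families (Cyp, a digit from 1 to 4, a subfamily letter, a gene number and at most 1 further letter). A gene was kept when its mean reached 1 TPM (transcripts per 1000000, a level that accounts for gene length) in the diet table or in the strain table. Another 8 genes (Cyp2b9, Cyp2b10, Cyp2b13, Cyp2a4, Cyp2a5, Cyp4a10, Cyp4a14 and Cyp4a12a) were left out by name, and 24 were under 1 TPM in both tables, out of 36077 genes in either table. Just inside the limit lay Cyp3a16, at 1.06 TPM in the strain table, Cyp1a1, at 1.43 TPM in the diet table, and Cyp2c55, at 1.66 TPM in the diet table. Just outside lay Cyp2d12, at 0.94 TPM in the strain table, and Cyp3a41b, at 0.63 TPM there. A limit of 0.5 TPM would have kept 53 genes and a limit of 2 TPM 44 genes. The members were thus chosen by their mean TPM in these same libraries. Their level is a description, and a gene such as Cyp1a1 that entered through 1 high library had to be high there.

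Liver RNA came from male mice in 2 sets, one comparing diets within a strain and one comparing strains under iron loading. In the diet set, C57BL/6J mice, an inbred strain, were fed chow, 50 ppm iron, 500 ppm iron, 2% carbonyl iron (20000 ppm) or the same iron content with cellulose named as the fiber source, with 3 mice per diet. The labels name no fiber for the other diets, so what else differed between the groups on 2% iron is not known here. The labels give no feeding time for this set and no iron content for chow. In the strain panel, 114 strains were fed chow for 4 weeks and 2% carbonyl iron for 6 weeks, with a single library for each strain but 129X1/SvJ, for which there were 2. The panel held 31 inbred strains outside the recombinant families, 56 BXD, 20 AXB/BXA, 4 BXH and 3 CXB strains. No strain of the panel was sequenced without iron, so panel values describe strains on iron and not a response to it. RNA was taken from a piece of the large lobe, and in such bulk tissue fewer cells of a type and less RNA per cell cannot be told apart. Nothing in the labels says whether mice shared a litter or cage, so the tests treat mice, and related strains of the panel, as independent.

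Library totals, in units of 1000000 counts, ran from 10.4 to 20.4 in the diet set and from 9.41 to 20.6 in the panel. The library labelled 500 ppm replicate 2 stood apart from the others with its strain label. In it, 36 genes stood over 4-fold above all 14 other diet libraries, against at most 11 in any other library, with 0.5 TPM added to each value. All 36 reached at most 5.38 TPM in the C57BL/6J library of the panel, and 34 of them exceeded that value in at least 1 panel library. These genes were chosen as lower in the other C57BL/6J mice, and the highest of many panel libraries is easily large. Whether the strain label is right was not tested. Cyp2c39 and Cyp3a44 are among the 36 genes. The library labelled 50 ppm replicate 1 lay at 42.9 on the first principal component of the diet set, apart from 22.6 and 25.8 in the other 50 ppm mice. In the panel, the library labelled BXD65/RwwJ held 1.0797 TPM summed over 4 Y-linked genes, against a panel median of 59.8 TPM. Fits without these libraries are given where they change a call or a value named here.

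Cytochrome P450 enzymes are heme proteins of the endoplasmic reticulum that insert 1 atom of oxygen into drugs, pollutants, steroids, fatty acids and bile acids, with electrons passed on by the reductase Por. In liver they are made mainly by hepatocytes, many of them most strongly around the central vein. Nuclear receptors such as CAR (Nr1i3) and PXR (Nr1i2) and the aryl hydrocarbon receptor (Ahr) switch on subsets of these genes, and growth hormone sets male and female patterns for others. Families 1, 2 and 3 hold most drug and steroid oxidases, while family 4 mainly oxidises the end carbon of fatty acids.

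Cyp2e1, which oxidises ethanol and paracetamol, was the most abundant member in both tables, with means of 2769 TPM in the diet set and 2893 TPM in the panel. Next in the diet set came Cyp3a11 (1185 TPM), the main drug oxidase of its subfamily, Cyp2d9 (506 TPM), a male-biased steroid 16-alpha hydroxylase, and Cyp2c29 (471 TPM), a drug and arachidonic acid oxidase. The leading members of other subfamilies were Cyp2f2 (424 TPM), an oxidase of naphthalene, Cyp1a2 (237 TPM), an oxidase of caffeine and aromatic amines, and Cyp2a12 (220 TPM), a bile acid hydroxylase. Cyp2j5 (199 TPM) and Cyp4f14 (88.6 TPM) led the subfamilies Cyp2j and Cyp4f, and Cyp4v3 stood at 68.6 TPM. The leading members of the remaining subfamilies had lower means, with Cyp4a32 at 29.3 TPM, Cyp4b1 at 9.53 TPM, Cyp2u1 at 8.4 TPM, Cyp2r1, the vitamin D 25-hydroxylase, at 8.3 TPM, and Cyp2g1 at 0.869 TPM. Members are close copies of each other in part. Of the 48 genes, 8 shared over 50% of the 31-base words of their transcripts with another gene, led by Cyp3a41a (99.9%), Cyp2c40 (72.6%) and Cyp2c67 (67.6%), while Cyp2c23, Cyp2c70, Cyp2f2 and Cyp2r1 shared none. Of the words of Cyp4a12b, 62.9% are also in Cyp4a12a, so reads could be split between such genes, and levels of the 8 genes are uncertain to that extent.

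Summed over the 48 genes, P450 transcripts were lowest on 2% iron and highest on chow. Abundant members weigh most in such a sum, above all Cyp2e1 and Cyp3a11, with means of 2769 TPM and 1185 TPM in the diet set. The sums were 8704 TPM to 10672 TPM on 50 ppm iron, 7466 TPM to 9525 TPM on 500 ppm and 5807 TPM to 7215 TPM on 2% iron. They were 5811 TPM to 5934 TPM on 2% iron with cellulose and 11313 TPM to 14110 TPM on chow. All 6 mice on 2% iron lay below the 9 others in this sum, and all 3 chow mice above the 12 others. Among single genes, the 6 mice on 2% iron lay below all 9 others for 6 members (12.5%), against 2.01% of the 13560 genes tested. Those 6 are Cyp2c23, Cyp2d40, Cyp2d9, Cyp2e1, Cyp4a12b and Cyp4v3. The same mice lay above all others for Cyp4f16 alone, 1 of 48 members, against 7.35% of all genes. The 3 chow mice lay above the 12 others for 14 members (29.2%), against 1.24% of all genes, and below them for none, against 1.93%.

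Between 2% iron and 50 ppm iron, 11 members were lower and 3 higher at an adjusted p under 0.05 (edgeR's quasi-likelihood test with Benjamini-Hochberg adjustment), and 34 did not pass. Of all 13560 genes tested, 7.17% were lower and 8.52% higher in that comparison, 15.7% in all. The median log2 change was -0.41 over the members and 0.01 over all genes, and 22 members and 4089 of all genes had an unadjusted p under 0.05.

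Male-biased oxidases showed the largest falls. Cyp4a12b, a fatty acid hydroxylase that makes 20-HETE, measured 59.7, 22.4 and 20.4 TPM in the 3 mice on 50 ppm iron and 2.93, 2.66 and 1.2 TPM on 2% iron. Every 2% iron mouse was below every 50 ppm mouse, and the 50 ppm mouse at 59.7 TPM was replicate 1. Its log2 change was -4.05 (SE 0.51, adjusted p = 0.000489), and -3.27 without the 2 libraries that stand apart, an alternative chosen after seeing the data. Cyp2d9 measured 1031, 629.8 and 704 TPM on 50 ppm iron and 196.1, 281 and 219 TPM on 2% iron. The groups did not overlap, and the log2 change was -1.85 (SE 0.25, adjusted p = 0.000584). Cyp2u1, a hydroxylase of long-chain fatty acids, averaged 12.9 ± 3.7 TPM on 50 ppm iron and 5.6 ± 2.6 TPM on 2% iron (SD, n = 3 each), and it fell by 1.42 on the log2 scale (SE 0.29, adjusted p = 0.00582, edgeR).

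**Figure D1:**
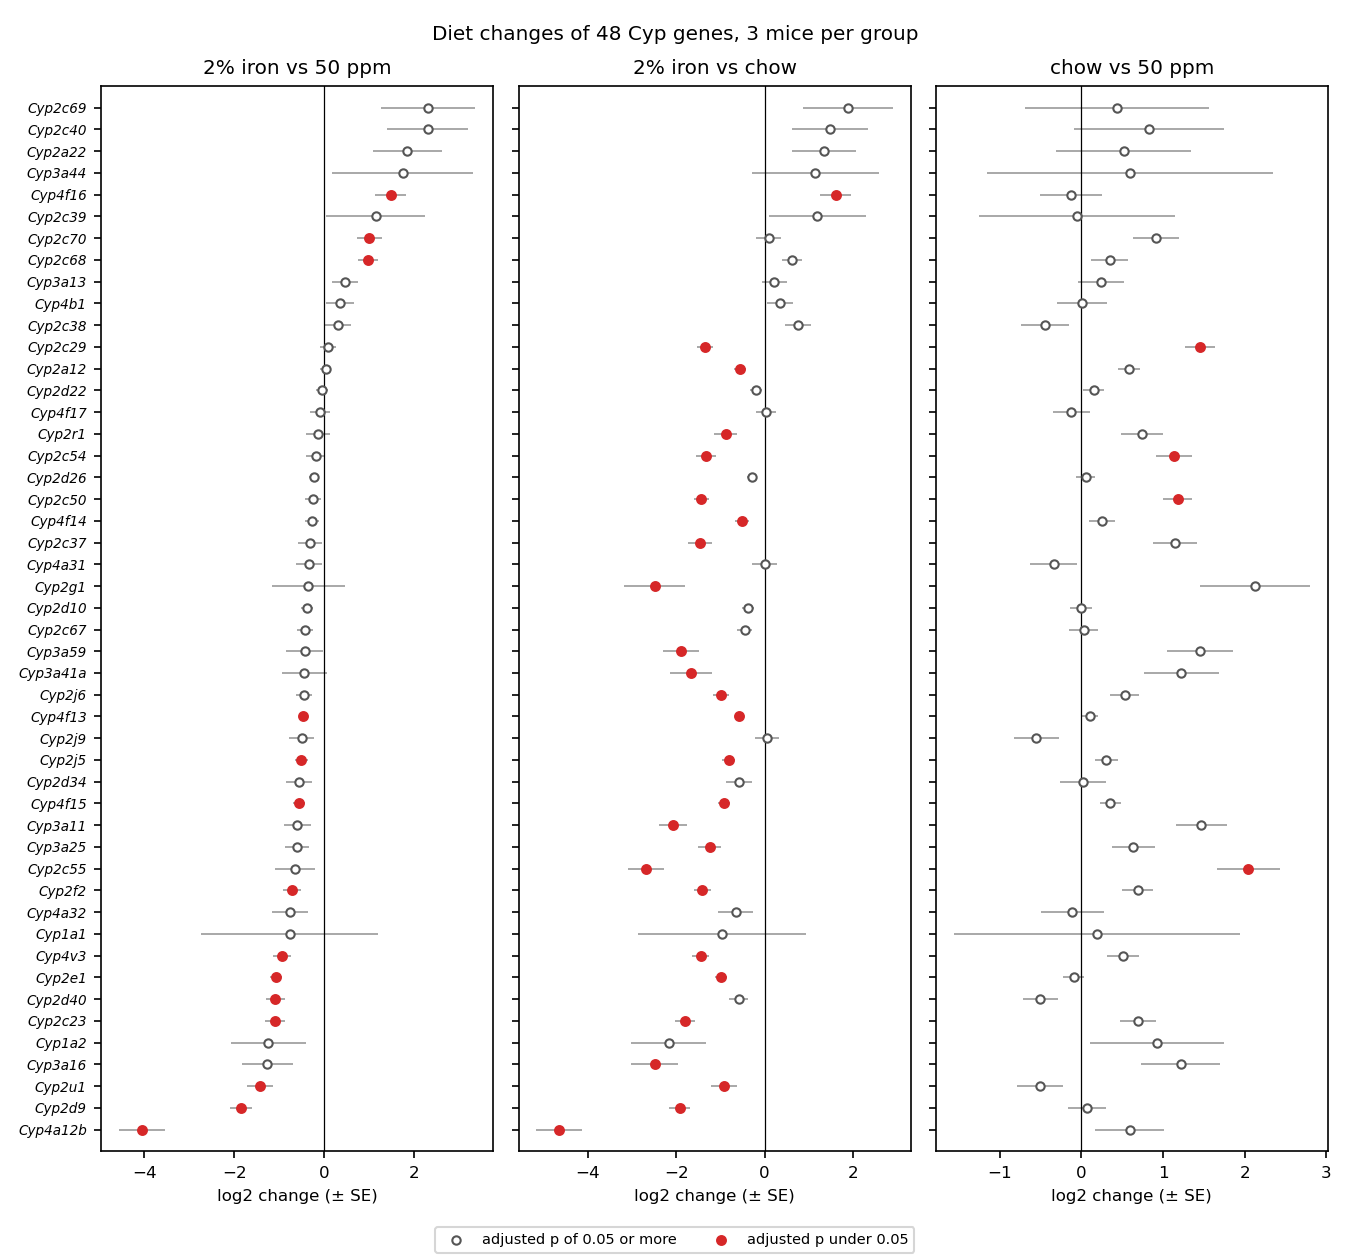
Log2 change of each of the 48 members (vertical axis, ordered by the change between 2% and 50 ppm iron) in 3 comparisons of diets, with bars of 1 standard error and filled points for members with an adjusted p under 0.05. Most points lie left of 0 for 2% iron against 50 ppm (35 of 48) and right of 0 for chow against 50 ppm (37 of 48).

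Cyp2e1, the most abundant member, and 3 others fell by about 1 unit on the log2 scale. Cyp2e1 measured 3774, 3316 and 4291 TPM on 50 ppm iron and 1864, 2095 and 1693 TPM on 2% iron. No mouse of one group reached the other group, and the log2 change was -1.07 (SE 0.13, adjusted p = 0.000489). Cyp2c23, an arachidonic acid epoxygenase, measured 128, 72.4 and 96.8 TPM on 50 ppm iron and 46.8, 50.6 and 49.7 TPM on 2% iron, a log2 change of -1.10 (SE 0.22, adjusted p = 0.00585). Cyp2d40 and Cyp4v3, the mouse counterpart of a human fatty acid hydroxylase of the retina, changed by -1.09 (adjusted p = 0.00503) and -0.94 (adjusted p = 0.00613) on that scale. These 7 members, from Cyp4a12b to Cyp4v3, passed the threshold in every alternative that tested them for this comparison. The fit that asked for 10 or more counts in each library could not hold Cyp4a12b, because of its level in the cellulose group.

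Smaller falls passed less steadily. Cyp2f2 averaged 478 ± 60 TPM on 50 ppm and 307 ± 53 TPM on 2% iron (SD, n = 3 each), a log2 change of -0.72 (edgeR adjusted p = 0.0228), and it did not pass without 50 ppm replicate 1 (adjusted p = 0.119). Leaving out 2% iron replicate 1 (0.0834) or replicate 3 (0.0651), or both libraries that stand apart (0.0668), also ended the call. Cyp4f15 (log2 change -0.56, adjusted p = 0.00892) and Cyp4f13 (-0.47, adjusted p = 0.00735), of the subfamily that oxidises leukotrienes and vitamin E, also fell. Cyp4f15 missed the threshold without 50 ppm replicate 1 (adjusted p = 0.0528), and Cyp4f13 under limma on log2(TPM + 1) (adjusted p = 0.0985). Cyp2j5, an epoxygenase, fell by 0.51 on the log2 scale (adjusted p = 0.028), and 7 alternatives ended its call, limma on log2(TPM + 1) (adjusted p = 0.0745) and each of the 50 ppm mice left out among them. Without 50 ppm replicate 1, 9 members passed in place of 14. Over all genes, 7.23% to 11.8% passed with each mouse left out.

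The 3 rises were in genes with different tasks. Cyp2c70, which makes the muricholic acids of mouse bile, measured 114, 167 and 117 TPM on 50 ppm iron and 278, 348 and 236 TPM on 2% iron. Its log2 change was 1.005 (SE 0.28, adjusted p = 0.0274), and leaving out any of 4 mice (2% iron replicates 1 and 2, 50 ppm replicates 1 and 3) raised the adjusted p to between 0.0629 and 0.0995. Cyp2c68 measured 64.7, 106 and 100.1 TPM on 50 ppm iron and 214, 193.1 and 145 TPM on 2% iron. Its log2 change was 0.97 (adjusted p = 0.0116), which became 0.82 (adjusted p = 0.066) without the 2 libraries that stand apart. Leaving out 2% iron replicate 1 (adjusted p = 0.0507) or 50 ppm replicate 1 (0.0655) also ended that call. Cyp4f16 measured 1.29, 1.5 and 0.863 TPM on 50 ppm iron and 4.48, 3.63 and 3.58 TPM on 2% iron, a log2 change of 1.48 (SE 0.35, adjusted p = 0.0123) that missed the threshold without 50 ppm replicate 3 (adjusted p = 0.0519).

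**Figure D2:**
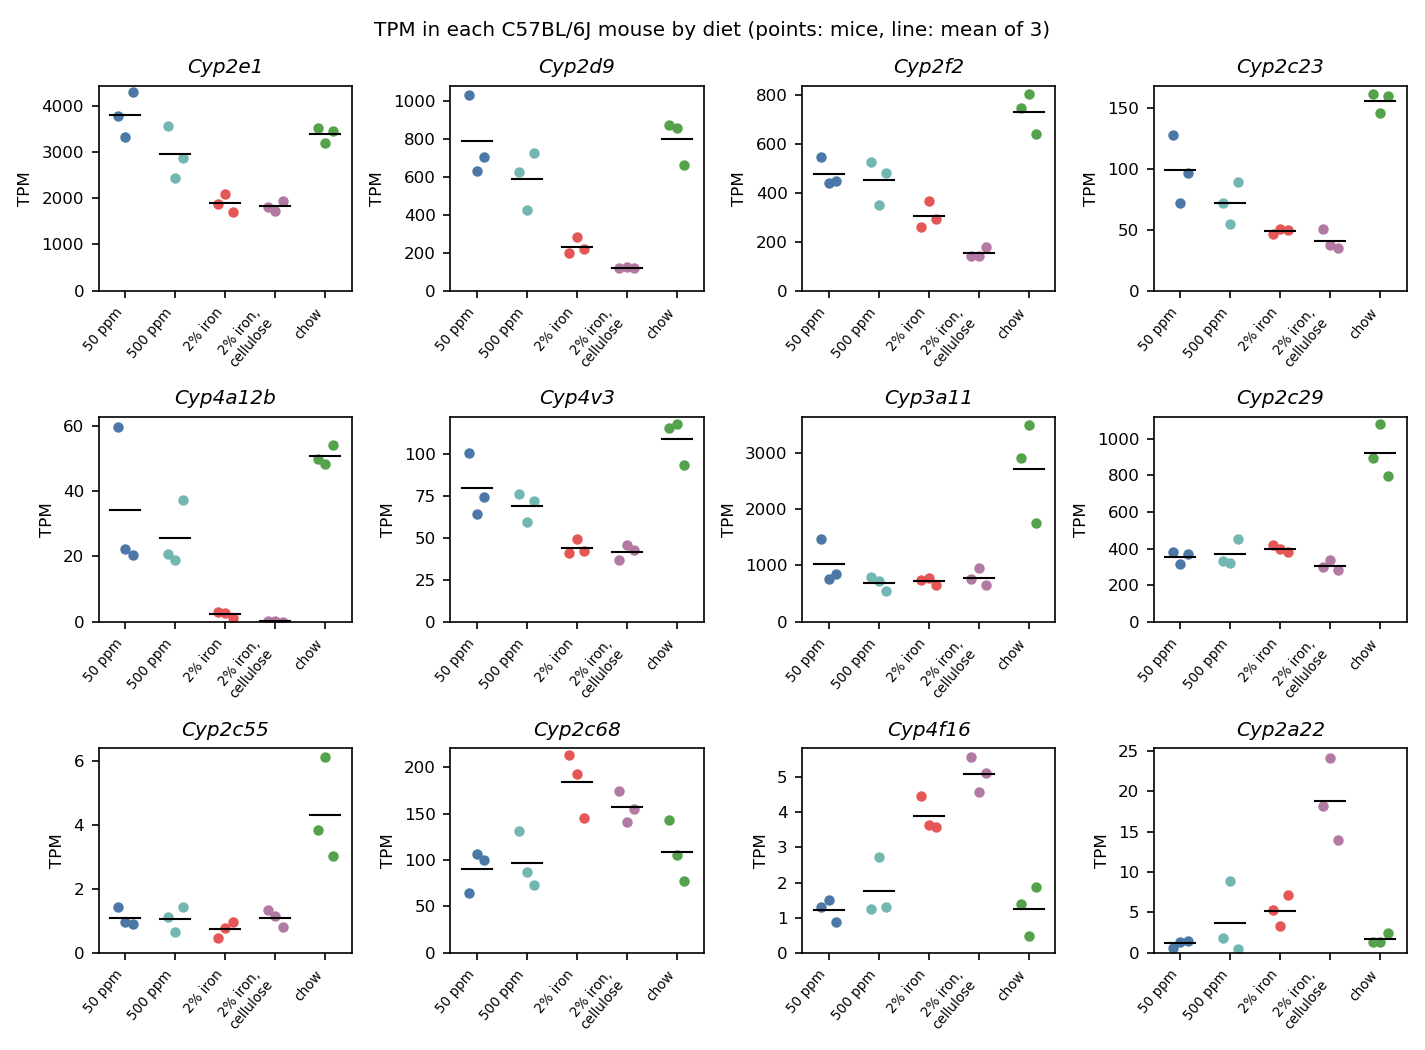
TPM of single mice (points, linear axis from 0) for 12 members described in the text, by diet group, with a line at each mean of 3 mice. The 6 mice of both 2% iron groups lie below the 9 others for Cyp2e1, Cyp2d9 and Cyp2c23, and the 3 chow mice lie above the 12 others for Cyp3a11 and Cyp2c29.

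Members that are female-biased in mouse liver did not pass the test in that comparison. The 9 such members are Cyp2a22, Cyp2c39, Cyp2c40, Cyp2c69, Cyp2g1, Cyp3a16, Cyp3a41a, Cyp3a44 and Cyp4b1. Their log2 change was above 0 in 6 and below 0 in 3, with a median of 1.14 over the 9. Cyp2a22 averaged 1.15 ± 0.53 TPM on 50 ppm iron and 5.22 ± 1.9 TPM on 2% iron (SD, n = 3 each) without overlap, at an edgeR adjusted p of 0.12. Of 7 male-biased members, 6 were lower, against 7.17% of all genes, with a median of -1.24. Cyp1a2 was the seventh, at -1.24 with an adjusted p of 0.34. Genes outside the members moved alongside: of 14 male-biased liver genes, 12 were lower (median -3.01, Mup7 -8.29, Mup17 -7.95, Mup1 -5.96, major urinary proteins, and Cyp4a12a -3.93). Of 14 female-biased ones, 3 were higher (Cyp2a4 6.66, Cyp2b9 6.56 and Fmo2 1.79, edgeR adjusted p = 0.0296), against 8.52% of all genes.

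Between 500 ppm and 50 ppm iron, no member and no other gene passed (0.0% of genes, edgeR), with 9 members and 428 of all genes at an unadjusted p under 0.05. DESeq2 and limma called no member either. One mouse on 500 ppm, replicate 3, stood apart in the Cyp1a genes, which lie side by side on chromosome 9 and answer to the aryl hydrocarbon receptor. Cyp1a1 measured 17.8 TPM there and 0.0367 to 0.773 TPM in the 14 other diet libraries. Cyp1a2 measured 1660.4 TPM there and 20.8 to 343 TPM in the others. The gene of the receptor itself, Ahr, lay within the range of the other libraries in that mouse, at 15.02 TPM (others 7.34 to 19.4 TPM). Tiparp and Nqo1, on which this receptor acts, did too, at 1.19 TPM (1.11 to 8.52 TPM) and 2.98 TPM (1.83 to 14.9 TPM). In the panel the CXB7/ByJ library was highest for both genes, with Cyp1a1 at 5.79 TPM (next BXD29/Ty, 1.93 TPM) and Cyp1a2 at 1407 TPM (next BXD44/RwwJ, 1044 TPM).

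The promoter of Cyp1a1, shown because of its level in that single mouse, holds GCGTG, the core letters that the aryl hydrocarbon receptor binds, once. The 250 bases before its RefSeq start (GRCm38.p6, plus strand, chr9:57697363-57697612) are printed with GCGTG in capitals.

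Cyp1a1: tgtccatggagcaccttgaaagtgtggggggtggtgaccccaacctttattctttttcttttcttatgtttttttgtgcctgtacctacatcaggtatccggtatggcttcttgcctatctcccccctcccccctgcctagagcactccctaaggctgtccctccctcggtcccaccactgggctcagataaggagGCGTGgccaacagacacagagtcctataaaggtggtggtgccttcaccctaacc

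The match runs from 54 to 50 bases before the start, and TATAAA from 30 to 25 bases before it. GCGTG, searched on both strands, is in 28.2% of 32851 RefSeq promoters of that length and in 5 of 39 member promoters (12.8%), namely those of Cyp1a1, Cyp2c68, Cyp2j9, Cyp4f16 and Cyp4v3.

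Between 2% iron and 500 ppm iron, 10 members were lower and 1 higher, against 4.75% and 6.59% of all genes (11.3% called in all). Cyp4a12b measured 20.6, 18.9 and 37.4 TPM on 500 ppm (log2 change of 2% iron -3.60, adjusted p = 0.000821), and Cyp2d9 measured 623.7, 423 and 722 TPM (-1.42, adjusted p = 0.00272). Both kept their call in every alternative that tested them. Cyp2u1 (-1.29, adjusted p = 0.0112), Cyp2d40 (-0.96, adjusted p = 0.0111), Cyp4v3 (-0.72, adjusted p = 0.0281), Cyp2e1 (-0.71, adjusted p = 0.00413) and Cyp2f2 (-0.63, adjusted p = 0.0499) were also lower. Cyp1a1 (-5.01, adjusted p = 0.0471) and Cyp1a2 (-3.21, adjusted p = 0.0318) were called through the single mouse described above. Without 500 ppm replicate 3 their log2 changes were 0.04 (adjusted p = 0.989) and -0.51 (adjusted p = 0.468). Cyp4a32 changed by -1.75 (adjusted p = 0.0115), and by -0.90 (adjusted p = 0.0113) without 500 ppm replicate 2, which held 101 TPM against at most 35 TPM elsewhere in the diet set. Cyp2c39 at 72.4 TPM and Cyp3a44 at 13.005 TPM were high in that library alone, against at most 5.54 TPM and 1.48 TPM in the 14 others, and neither was called. Cyp2c68 was higher on 2% iron (0.86, adjusted p = 0.0265) but missed the threshold without replicate 2 of 500 ppm (adjusted p = 0.0575). With 1 mouse left out at a time, the count of 11 members ran from 6, without 2% iron replicate 2 or 3, to 16, without 500 ppm replicate 2. It was 7 without 2% iron replicate 1, and 17 without both libraries that stand apart. Over all genes, 5.69% to 15.9% passed with each mouse left out.

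Between chow and 50 ppm iron, 4 members, all of subfamily Cyp2c, were higher and none lower, against 0.265% and 0.125% of all genes (0.391% called in all), and 37 of 48 members had a log2 change above 0. The comparisons of chow with 50 ppm and with 2% iron share the chow mice, and those against 50 ppm share the 50 ppm mice, so their values are side by side and not independent. Cyp2c29 measured 895, 1079 and 798 TPM on chow, 380, 318 and 369 TPM on 50 ppm, 332, 323 and 454 TPM on 500 ppm and 417.1, 395.6 and 383.6 TPM on 2% iron. Chow stood apart, while the 9 mice of these iron diets lay between 318 and 454 TPM, and the log2 change against 50 ppm was 1.45 (SE 0.18, adjusted p = 0.00397). Cyp2c50 averaged 512 ± 69 TPM on chow and 237 ± 18 TPM on 50 ppm (SD, n = 3 each; log2 change 1.18, edgeR adjusted p = 0.0144), and Cyp2c54 198 ± 37 and 95 ± 4.3 TPM (1.14, adjusted p = 0.0421). Cyp2c55 had the largest change of the 4 called members (2.04, adjusted p = 0.0383), from 1.1 TPM to 4.32 TPM.

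Cyp3a11 measured 2909.6, 3490.1 and 1760.4 TPM on chow, and 1465, 752 and 841 TPM on 50 ppm iron. The groups did not overlap, yet the change of 1.47 missed the threshold (adjusted p = 0.0673). On 500 ppm it measured 787, 718 and 543 TPM and on 2% iron 743, 775 and 650.0 TPM. The 50 ppm mouse at 1465 TPM, replicate 1, was the highest of these 9, and the next was at 841 TPM. Which members pass between chow and 50 ppm moved with single mice. Without 50 ppm replicate 3 none passed and without 50 ppm replicate 1 there were 7. There was 1 without 50 ppm replicate 2 or chow replicate 2, and there were 2 without chow replicate 1. Without both libraries that stand apart, 9 passed. Over all genes, 0.0289% to 0.447% passed with each mouse left out.

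Between 2% iron and chow, 25 members were lower and 1 higher, against 10.9% and 11.9% of all genes (22.8% called in all), with a median log2 change of -0.73 over the members. The largest falls were in Cyp4a12b (2.26 ± 0.93 TPM on 2% iron and 50.8 ± 3.0 TPM on chow, SD, n = 3 each), at -4.64 (edgeR adjusted p = 0.000103), and Cyp2c55 (-2.69, adjusted p = 0.000525). Cyp2g1 (-2.49, adjusted p = 0.0192) and Cyp3a16 (-2.48, adjusted p = 0.00464) followed, both at low levels, with means of 2.11 TPM and 2.21 TPM on chow. Cyp3a11 changed by -2.06 (SE 0.32, adjusted p = 0.000612) without overlap. Cyp2g1 lost its call in 5 alternatives, each of the 2% iron replicates left out among them (adjusted p from 0.0543 to 0.0683), and the other 4 named here in none. For Cyp2g1 the count fit and the TPM differ against 50 ppm, where its log2 change was -0.36 while its mean was 0.723 TPM on 2% iron and 0.279 TPM on 50 ppm. Cyp4f16 was the single rise (1.61, adjusted p = 0.00515). Of 9 female-biased members, 3 were lower on 2% iron than on chow, Cyp2g1, Cyp3a16 and Cyp3a41a, and none was called higher. The log2 change was above 0 in 6 of the 9.

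The 2% iron group labelled with cellulose had no called member against the other 2% iron group (edgeR), against 0.00737% of all genes higher and 0.0737% lower (0.0811% called in all), although 12 members and 1757 of all genes had an unadjusted p under 0.05. DESeq2 called 6 members in that comparison, and 1.79% of all genes with an adjusted p. Closest to the threshold were Cyp2f2, at 140.7, 140.3 and 178 TPM in the cellulose group and 262, 365 and 295 TPM in the other (log2 change -1.10, adjusted p = 0.0558), and Cyp4f14, a vitamin E and leukotriene hydroxylase (-0.87, adjusted p = 0.0578). No mouse of the cellulose group reached the lowest mouse of the other for either gene. Against 50 ppm iron, 17 members were lower and 3 higher with cellulose, against 14.3% and 15.4% of all genes (29.7% called in all). Cyp4a12b was at 0.293, 0.272 and 0 TPM with cellulose (-7.68, adjusted p = 2.03e-05), and Cyp2d9 at 121, 126 and 120.1 TPM (-2.85, adjusted p = 1.71e-05). Cyp2u1 (-2.42, adjusted p = 0.000161), Cyp2d40 (-1.89, adjusted p = 0.000103) and Cyp2f2 (-1.82, adjusted p = 6.69e-05) followed. Cyp2a22 was the only female-biased member called higher in any of these diet comparisons, while 3 such members were called lower between 2% iron and chow. Cyp2a22 measured 18.2, 24.2 and 13.9 TPM with cellulose and 0.542, 1.39 and 1.51 TPM on 50 ppm (3.75, SE 0.74, adjusted p = 0.00248). Cyp4f16 (1.71, adjusted p = 0.00288) and Cyp2c68 (0.68, adjusted p = 0.0379) also rose, Cyp2c68 with 7 alternatives that end the call.

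Genes around the P450 system were read from lists of known partners. Between 2% and 50 ppm iron, 7.17% of all genes were lower and 8.52% higher, the shares to set beside the counts below. Of 18 tested regulators and partners, 4 were lower and 2 higher. Nr0b2, a repressor of bile acid synthesis, changed by -1.80 (adjusted p = 0.0181) and Nr1i3, the receptor CAR, by -0.95 (adjusted p = 0.0105). Cebpa, a hepatocyte transcription factor, changed by -0.40 and Esrra by -0.38. Hmox1, which breaks heme down, rose by 2.36 (adjusted p = 0.00842), and Arnt, the partner of Ahr, by 0.40. The receptor PXR (Nr1i2, 0.03) and the reductase Por (-0.10) did not pass. Of 8 heme synthesis enzymes, 1 was lower (Alad, -0.52, adjusted p = 0.0059). Of 19 conjugating enzymes and transporters, 5 were lower, among them the carboxylesterase Ces2a (-1.46), and 2 higher, the glutathione transferases Gstm3 (1.59) and Gstm1 (0.56). On chow against 50 ppm, 5 of the same 19 were higher, led by Gsta2 (3.18, edgeR adjusted p = 0.0144), and none lower. The shares of all genes there were 0.265% and 0.125%.

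Markers of other cells and of the zones of the lobule were read between 2% and 50 ppm iron, where 7.17% of all genes were lower and 8.52% higher. Of 12 pericentral markers outside the members, 5 were lower on 2% than on 50 ppm iron (median -0.55, Rhbg -1.40, Lgr5 -1.37, Cyp7a1 -1.36 and Slc1a2 -1.29), and of 11 periportal markers 1 was lower (Pck1, -0.65) and 1 higher (Ctsc, 0.81). All 6 Kupffer cell markers were higher, with summed levels of 234 to 276 TPM on 2% iron and 52.1 to 99.5 TPM on 50 ppm. Of 5 erythroid markers the 4 globin genes were higher and Alas2 lower (-1.51), with sums of 659.5 to 1068 TPM and 76.8 to 134 TPM, and the highest sum on 500 ppm was 254 TPM. Of 5 hepatocyte markers 1 was lower (Apoa1, -0.86) and none higher, of 6 stellate markers 1 was higher (Rgs5), and of 5 endothelial markers 1 (Stab2). None of 4 cholangiocyte, 2 neutrophil, 2 lymphocyte and 1 pancreatic genes tested was called (edgeR), while Fabp2, the only intestinal gene tested, was lower (-1.16). The exocrine pancreas genes Prss2, Pnlip, Cpa1 and Amy2a5, the kidney genes Umod and Kap, and the intestinal genes Vil1 and Sis were under 0.5 TPM in all diet libraries. The part of these cell markers in the P450 differences was not tested.

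**Figure D3:**
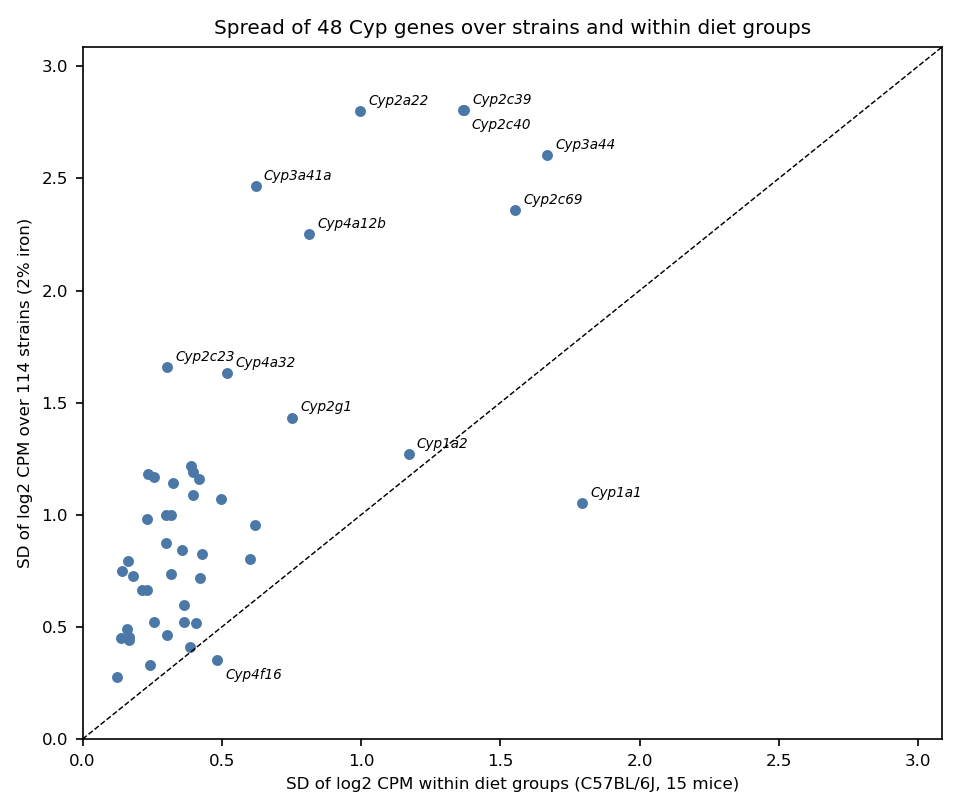
Standard deviation of log2 CPM over the 114 strains (vertical axis) against the standard deviation within diet groups of C57BL/6J (horizontal axis), 1 point for each of the 48 members, with a line of equal values. Members above the line vary more between strains than between mice of 1 diet, and Cyp2c40, Cyp2c39 and Cyp2a22 are highest, at 2.81, 2.80 and 2.80 among strains.

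Strains on the same iron diet differed far more in the measured levels of these genes than in those of most others. The median SD of log2 CPM (counts per 1000000) over the 114 strains was 0.86 for the 46 members with a panel mean of at least 1 TPM. It was 0.32 for 12091 genes that have that panel mean and are present in both tables. The SD was above 1 in 18 of the 46 members (39.1%), against 7.20% of those genes. It exceeded the SD within diet groups in 45 of the 46, Cyp4f16 being the exception, and in 94.9% of all those genes, so that excess is general. The same median was 0.65 over BXD strains alone and 0.81 without NZB/BlNJ. The 2 mice of 129X1/SvJ differed by a median of 0.34 on the log2 scale over the members, against 0.16 over all genes. They differed by over 1 in 9 members, for which no share of all genes was taken. No other strain had 2 mice, so how much of these spreads lies between mice of a strain is not known. Reads of all strains were assigned on mm10, and close copies among the members share words. Sequence differences between strains may thus enter these spreads, and their part was not tested.

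The widest spread was in Cyp2c40, from 0.142 TPM in BXD14/TyJ to 233 TPM in AXB8/PgnJ with a median of 12.3 TPM (SD 2.81). Next came Cyp2c39, from 0.868 TPM in BXD14/TyJ to 742 TPM in BALB/cJ with a median of 61.1 TPM (SD 2.80), and Cyp2a22, from 0.0567 TPM in BXD45/RwwJ to 182 TPM in BALB/cByJ (SD 2.80). Cyp3a44 ranged from 0.0931 TPM in NZB/BlNJ to 157 TPM in BXA2/PgnJ (SD 2.60). Most of these genes are female-biased in mouse liver, although all mice were male by their labels. Cyp3a41a had a median of 0.778 TPM and reached 212 TPM in CE/J (SD 2.46), Cyp2c69 a median of 1.56 TPM and 109 TPM in BXD74/RwwJ (SD 2.36). Cyp4a12b, which is male-biased, ranged from a value listed at 0 to 18.2 TPM in BXD19/TyJ (SD 2.25). Cyp2c23 (1.075 TPM to 179 TPM, SD 1.66), Cyp4a32 (1.8 TPM to 326.1 TPM, SD 1.63) and Cyp2g1 (0 to 12.9 TPM, SD 1.43) complete the 10 most variable members. At the other end were Cyp4f13 (20.1 TPM to 73.3 TPM, SD 0.28), Cyp2j6 (6.74 TPM to 21.1 TPM, SD 0.33) and Cyp4f16 (2.18 TPM to 10.9 TPM, SD 0.35).

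**Figure D4:**
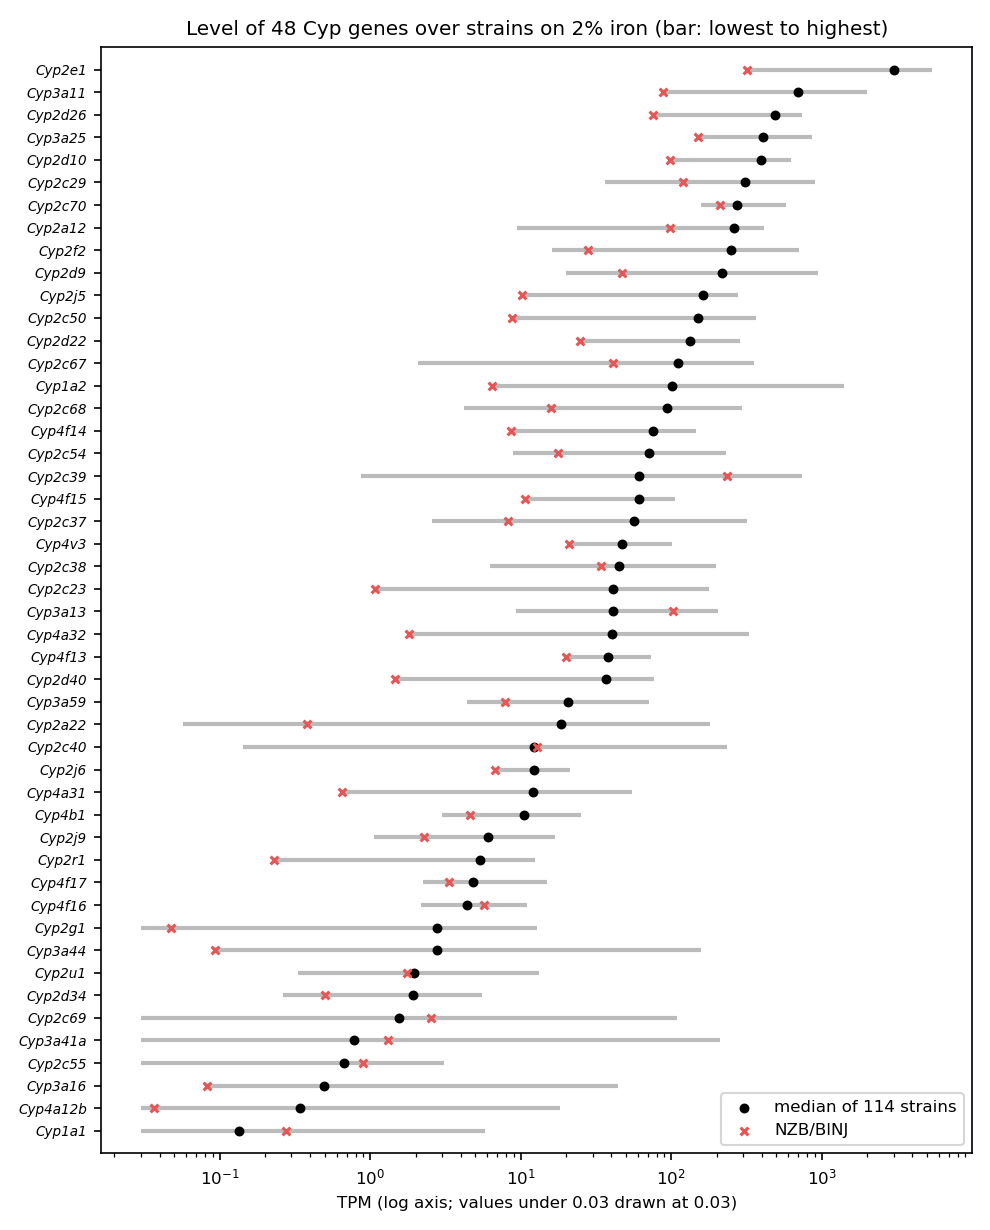
TPM in the panel (log axis, values under 0.03 drawn at 0.03) of the 48 members, with a bar from the lowest to the highest strain, a point at the median of 114 strains and a cross at NZB/BlNJ. The bar of Cyp2c39 reaches from 0.868 TPM to 742 TPM, and the cross marks the low end in 20 members.

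Some libraries recur at the ends of these ranges. NZB/BlNJ was lowest in 20 of the 48 members, all of them among the 46 with a mean of at least 1 TPM (43.5%), and in 11.5% of the 12135 genes with that mean. Cyp2e1 (319.8 TPM, panel median 3021 TPM) and Cyp3a11 (87.8 TPM, median 694 TPM) were among the 20. KK/HlJ was lowest in 4 and NOD/ShiLtJ and BXD14/TyJ in 3 each, for which no share of all genes was taken. Within the 4 BXH strains, 9 of the same 46 members (19.6%) had 1 strain far from the other 3 by Dixon's ratio of its gap to the whole range, against 9.18% of the 12135 genes. The neutrophil markers of NZB/BlNJ summed to 149 TPM, above 105 strains, and its erythroid markers to 3502 TPM, above 107 strains. Its stellate markers summed to 174 TPM, above 108 strains, while its hepatocyte markers were above those of 45 strains. Its intestinal markers, at 3.04 TPM, were the lowest of the panel, and its Y-linked genes, at 40.9 TPM, were above 2 strains. The part of these differences in its low P450 levels was not tested. The BXD65/RwwJ library, low in Y-linked transcripts, was high in Cyp2c40 (198 TPM), Cyp2c69 (74.6 TPM) and Cyp3a44 (63.0 TPM) and at 0 for Cyp4a12b. Left out, it moved the median SD from 0.859 to 0.863 and no range of a member over the strains.

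Cyp2c40 and Cyp2c69 varied together over the strains (Pearson r = 0.85, Spearman rho = 0.90, n = 114), values that share libraries and, in part, reads. Their promoters are among the most alike of the members, with 86.8% of 250 bases identical, and those of Cyp2c68 and Cyp2c69 share 92.8%. Of 11 patterns searched on both strands, 7 of them added after the promoters were seen, CAAAGTCCA, which resembles a binding site of the hepatocyte factor Hnf4a, was in 8 of 39 member promoters (20.5%) and in 0.384% of all RefSeq promoters of that length. The 8 are Cyp2c40, Cyp2c67, Cyp2c68, Cyp2c69, Cyp2c70, Cyp3a11, Cyp3a16 and Cyp3a41a, which are close relatives and not independent, and the pattern was kept after it was seen. The stretches of 69 bases around it are shown for 2 groups of relatives, because their levels spread widely while their promoters nearly match. All are on the minus strand of GRCm38.p6, from RefSeq. Capitals mark the motif and, in Cyp3a44, the 9 bases at the same place, which do not match it.

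Cyp2c40, chr19:39812821-39812889: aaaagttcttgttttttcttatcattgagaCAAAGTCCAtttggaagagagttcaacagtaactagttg
Cyp2c69, chr19:39886806-39886874: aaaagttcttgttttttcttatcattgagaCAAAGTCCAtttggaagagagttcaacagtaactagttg
Cyp2c68, chr19:39741140-39741208: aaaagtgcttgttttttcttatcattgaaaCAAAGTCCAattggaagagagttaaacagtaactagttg
Cyp3a16, chr5:145469784-145469852: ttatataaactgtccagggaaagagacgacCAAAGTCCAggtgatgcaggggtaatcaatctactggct
Cyp3a41a, chr5:145720193-145720261: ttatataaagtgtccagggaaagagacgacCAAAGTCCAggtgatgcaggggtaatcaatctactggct
Cyp3a44, chr5:145805931-145805999: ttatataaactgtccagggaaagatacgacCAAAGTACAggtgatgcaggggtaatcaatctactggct

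The 69 bases of Cyp2c40 and Cyp2c69 are the same letters, although the panel medians of these genes were 12.3 TPM and 1.56 TPM. Within the motif, the Cyp3a44 promoter differs from that of Cyp3a41a at C7A, counted from 1 at the 5′ end of the 9-base motif, and it has no match. Over the strains Cyp3a41a and Cyp3a44 ran in opposite directions to a weak degree (r = -0.38, rho = -0.35, n = 114). These letters come from the reference strain, and the sequences of the other strains were not analysed here. Of the other patterns, TATAAA was in 20 member promoters (51.3%, against 12.4% of all), AGTTCA in 9 (23.1%, against 11.8%) and TTCNNNGAA in 2 (5.13%, against 7.02%). None of the 39 held TTGCGCAA (0.164% of all promoters), TTC and GAA with 4 free bases between them (5.85%), or any of the 4 longer patterns (0.00609% to 0.0335%), which are direct repeats of AGGTCA and of AGTTCA, an everted repeat of AGTTCA and an Hnf1 site.

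Among the 56 BXD strains, which descend from C57BL/6J and DBA/2J, 5 members fell into 2 levels (2 fitted peaks lying apart by an Ashman's D above 3, each with 5 or more strains, and favoured by a BIC difference over 10). All 5 are among the 46 members with a panel mean of at least 1 TPM (10.9%), and 4.07% of 12135 genes with that mean met the same rule. Cyp2c39 was at 0.868 TPM to 13.6 TPM in 31 strains and at 71.3 TPM to 296 TPM in 25, with C57BL/6J at 3.84 TPM and DBA/2J at 53.4 TPM. Cyp2c23 went the other way between the parents, at 3.44 TPM to 18.97 TPM in 24 strains and 24.5 TPM to 149.9 TPM in 32, with C57BL/6J at 51.6 TPM and DBA/2J at 16.9 TPM. Both genes lie on chromosome 19, and 49 of 56 strains (87.5%) sat on the side of the same parent for both. For the 9 pairs of the 5 genes on different chromosomes, that number ran from 24 to 35 of 56.

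**Figure D5:**
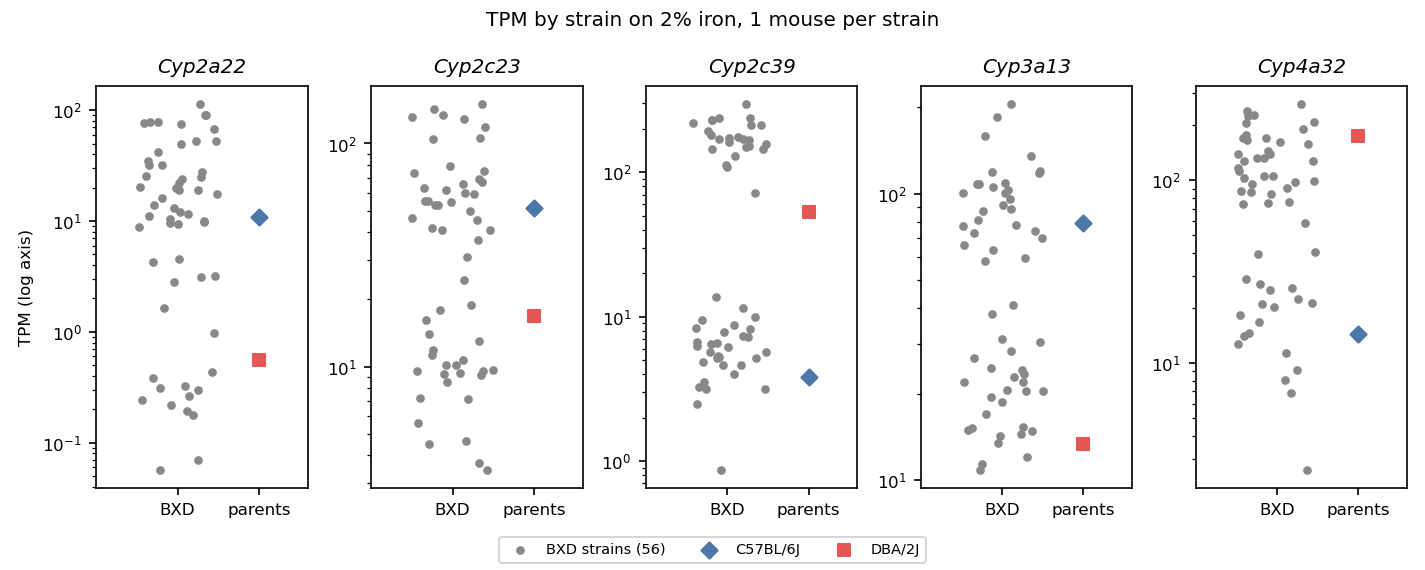
TPM (log axis) of the 56 BXD strains for the 5 members with 2 levels, in grey at random horizontal offsets, with the parents C57BL/6J (diamond) and DBA/2J (square) beside them. In Cyp2c39 a gap from 13.6 TPM to 71.3 TPM separates 31 low from 25 high strains.

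Cyp3a13, a drug and steroid oxidase on chromosome 5, was at 10.9 TPM to 31.1 TPM in 26 strains and at 38.1 TPM to 205 TPM in 30, with 78.9 TPM in C57BL/6J and 13.4 TPM in DBA/2J. Cyp4a32, on chromosome 4, was at 2.6 TPM to 40.7 TPM in 20 strains and 58.3 TPM to 260.5 TPM in 36, with 14.4 TPM in C57BL/6J and 176 TPM in DBA/2J. Cyp2a22, on chromosome 7, was at 0.0567 TPM to 0.973 TPM in 13 strains and 1.64 TPM to 113 TPM in 43, with 10.99 TPM in C57BL/6J and 0.553 TPM in DBA/2J. For all 5 the parents lay on opposite sides, except that DBA/2J at 53.4 TPM falls in the gap of Cyp2c39. The same 5 genes had 2 levels on log2(TPM + 1) and without BXD65/RwwJ, and Cyp3a41a joined them at a D above 2. No genotypes were used, and the part of sequence differences in how reads were assigned on mm10 was not tested.

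Between the BXD and the AXB/BXA strains, which descend from A/J and C57BL/6J, 6 members were lower in BXD and 2 higher, of 47 tested, against 5.02% and 6.62% of 13794 genes (11.6% called in all, edgeR). Cyp3a44 was lower in BXD (median 3.82 TPM, range 0.122 to 103.8 TPM) than in AXB/BXA (18.5 TPM, 0.537 to 157 TPM), a log2 difference of -1.81 (SE 0.49, adjusted p = 0.00867). Cyp2a22 differed by -1.60 (medians 12.6 TPM and 58.5 TPM, adjusted p = 0.0154) and Cyp2c38, of the same cluster as Cyp2c39, by -0.56 (adjusted p = 0.00258). Cyp2e1 had medians of 2689 TPM and 3514 TPM, a difference of -0.46 (SE 0.10, adjusted p = 0.000383). Cyp3a25 (-0.40, adjusted p = 0.00231) and Cyp4f17 (-0.33, adjusted p = 0.0168) were also lower. In each of these genes the ranges of the families overlapped. Cyp3a41a was called higher in BXD (2.25, adjusted p = 0.0424) with medians of 0.697 TPM and 0.689 TPM, and DESeq2 gave an adjusted p of 0.513. Its highest value was 82.1 TPM in BXD and 1.79 TPM in AXB/BXA. Cyp4f16 was the other member called higher (0.26, adjusted p = 0.0298). With substrains reduced to 1 strain each, Cyp3a41a, Cyp4f16 and Cyp3a44 did not pass (adjusted p = 0.0748, 0.0714 and 0.0516). Without BXD65/RwwJ the same 8 members passed, and Cyp2d26 joined them (-0.19, adjusted p = 0.0483).

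Over the 114 strains, the pairs of members most alike in log2 CPM were Cyp2d10 with Cyp4f14 (r = 0.86), Cyp2c40 with Cyp2c69 (r = 0.85) and Cyp2d10 with Cyp2d40 (r = 0.84). The male-biased Cyp2d9 and Cyp4a12b went together (r = 0.75, rho = 0.74), and against the female-biased Cyp2c69 Cyp2d9 had r = -0.53. Cyp2c23 and Cyp2c39 were the most opposed pair (r = -0.61). Among all genes, the closest to Cyp2e1 were Slc27a2, a fatty acid transporter of peroxisomes (r = 0.85), and Gstz1 (r = 0.85). Cyp2r1 was closest to Fdps, of cholesterol synthesis (r = 0.66), Cyp2u1 to the urinary protein Mup21 (r = 0.81), and Cyp4b1 to F8 (r = 0.75), the clotting factor made by endothelium. Cyp4v3 was closest to catalase, Cat (r = 0.87), and Cyp2f2 to Sult2a8 (r = 0.80). Without BXD65/RwwJ, an alternative chosen after seeing the data, r and rho of the 7 pairs of members given here moved by at most 0.023. All of these are descriptions over single mice per strain that share library depth and family structure.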

How the data were processed

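Total RNA from a piece of liver was sequenced with a stranded mRNA kit, per the labels' protocols. The deposited tables give TPM and estimated counts per gene, which the authors made with kallisto 0.46 on mm10, per the submitters' processing notes. In the diet table, 52.3% of nonzero counts were not whole, so the expected counts were rounded, although the design had assumed raw counts. The tables held 35274 genes (diet) and 35711 genes (panel), and no sample column was left unused. Depth is given by library totals, which ran from 10.4 to 20.4 in units of 1000000 counts in the diet set and bound the precision of low genes. Coordinates are from GENCODE M21 (GRCm38) and promoters from RefSeq GRCm38.p6, which held 39 of the 48 members.

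All 5 diet groups were fitted together with edgeR 4.0.16 (R 4.3.3; TMM, filterByExpr, quasi-likelihood test, Benjamini-Hochberg adjustment over all genes tested, threshold 0.05), and the BXD and AXB/BXA strains in a fit of their own. Log2 CPM used a prior count of 2. The fit was tested on simulated data. Alternatives were DESeq2 1.42.0, RLE factors, a fit without the filter on low counts, one that asked for 10 or more counts in each library, limma 3.58.1 on log2(TPM + 1) and on log2(TPM + 0.1) for genes with a mean of at least 0.1 TPM, the compared groups alone, and each mouse left out. Leaving out the libraries that stand apart, and NZB/BlNJ, was chosen after seeing the data, as was the 4-fold limit that set those libraries apart.

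Genes named are the called members of each comparison by size of change (at most 25 for 2% against 50 ppm iron, at most 5 in each direction for other diets and 8 for strain families), the leading member of each subfamily, the 10 members with the largest SD over strains, the members with 2 levels in BXD, those next to the TPM limit, and the called genes of other lists. Others were chosen after their values were seen. The members and lists were chosen with earlier results of these data known.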

Additional observations from a re-analysis of the deposited data

Results flagged for a closer look

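Among the 4 BXH strains, 9 of the 46 members looked at had 1 strain far from the other 3, by the ratio of its gap to the whole range. That is 19.6% of them, against 9.18% of 12135 genes with a panel mean of at least 1 TPM. The limit would flag about 1 in 20 groups of normally distributed values, which TPM values need not be. The share over all genes is therefore the one to compare, and genes of 1 library are not independent. BXH10/TyJ was high for Cyp2a22 (75.8 TPM, others 1.25 to 4.93 TPM), Cyp3a44 (47.4 TPM, others 0.166 to 1.83 TPM) and Cyp2g1 (6.95 TPM, others 0.045 to 0.35 TPM). BXH14/TyJ was high for Cyp2c23 (99.5 TPM, others 1.24 to 8.85 TPM), Cyp2u1 (13.2 TPM, others 1.33 to 2.12 TPM) and Cyp4a12b (8.45 TPM, others 0.347 to 0.648 TPM). BXH8/TyJ was high for Cyp3a13 (104.7 TPM, others 9.36 to 24.9 TPM) and low for Cyp2r1 (1.91 TPM, others 5.55 to 5.76 TPM). BXH2/TyJ was low for Cyp2d40 (2.18 TPM, others 38.5 to 44.6 TPM).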

How the results depend on the processing

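Of 46 named calls, 26 held in every alternative that tested the gene. Of 616 refits of single genes, 530 kept direction and side of the threshold, 85 lost the call and 1 changed sign, Cyp1a1 between 2% and 500 ppm iron, whose log2 difference ran from -5.90 to 0.037 with each mouse left out. All genes called are given as the percent of the genes each fit tested, whose number moves with the filter: 13560 as reported for the diets, 16939 under limma, 23529 with no filter and 11412 with at least 10 counts. Given are fits whose number of called genes moved by over 1.5 times. In the order limma with 1 and with 0.1 added, they became 6.22% and 6.03% for 2% against 50 ppm iron (15.7% as reported), 0.0059% and 0.0177% for 500 ppm against 50 ppm (0%), 4.51% and 4.39% for 2% against 500 ppm (11.3%), 10.6% and 10.8% for 2% against chow (22.8%), 0.0649% and 0.0945% for chow against 50 ppm (0.391%), 0.112% and 0.112% for cellulose against 2% (0.0811%), 14.8% and 14.3% for cellulose against 50 ppm (29.7%), and 5.79% and 6.09% for BXD (11.6%). Members called became 5 and 4 for 2% against 500 ppm (11), 2 and 2 for chow against 50 ppm (4), and 1 and 2 for cellulose against 2% (0). DESeq2 gave 9 members and 1.15% for chow against 50 ppm, and 6 members and 1.79% for cellulose against 2% (12564 and 12110 genes with an adjusted p). With the compared groups alone there were 7 members and 7.11% for 2% against 500 ppm, 1 and 0.206% for chow against 50 ppm, and 1 and 0.177% for cellulose against 2%. Without both libraries that stand apart there were 9.26% of genes for 2% against 50 ppm, 17 members for 2% against 500 ppm, 9 and 0.623% for chow against 50 ppm, and 4 and 0.493% for cellulose against 2%. Cellulose against 2% also gave 2 and 0.217% with no filter, 2 and 0.228% with at least 10 counts, and 2 and 0.383% without 500 ppm replicate 2. BXD gave 5 members with at least 10 counts and 5 with substrains reduced. The cause was not tested. With each mouse left out, members and the percent of genes ran from 9 to 14 and 7.23% to 11.8% for 2% against 50 ppm, 6 to 16 and 5.69% to 15.9% for 2% against 500 ppm, 21 to 26 and 15.5% to 18.97% for 2% against chow, 0 to 7 and 0.0289% to 0.447% for chow against 50 ppm, 0 to 3 and 0% to 1.54% for cellulose against 2%, and 17 to 20 and 19.5% to 26.7% for cellulose against 50 ppm. For 500 ppm against 50 ppm both stayed at 0. No paired analysis was possible because replicate numbers follow only the order of the samples and no label pairs mice.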
